A study of Mus musculus with 8 samples.

Results

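Expression of 9 genes of the p53 pathway and the Gadd45 family was described in cultured sacral neural crest cells of mouse embryos homozygous for the Sox10 allele Dom and of wild-type embryos. The members were taken by name: Trp53, its inhibitor Mdm2, the p53 target genes Btg2, Phlda3, Ccng1, Plk2, Perp and Sesn1, and the stress genes Gadd45b and Gadd45g. Of these 10 genes, 9 were measured, each by 1 probe set with a single gene symbol, among 6855 genes tested. Trp53 itself was not analysed here. Neural crest cells migrate away from the neural tube and form peripheral neurons, glia and melanocytes. Sacral crest cells supply part of the enteric neurons and glia of the hindgut.

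Dom/Dom cultures (4 arrays) came from embryos labelled as homozygous Sox10 mutants, and wild-type cultures (4 arrays) from embryos with no mutation named. Dom is a frameshift allele carried in every tissue, so the explanted neural tube had it as well as the crest cells. In both groups the neural tube caudal to somite 24 was explanted at embryonic day 9.5 and cultured with 10% serum. The explant was removed after 24 hours, and the cells that had emigrated gave the RNA. The labels number the arrays of each genotype 1 to 4 without naming embryos, litters or culture days. The p-values therefore rest on the scatter among these arrays alone, some of which may be technical. Levels are log2 units of normalised array signal, in which 1 unit is a doubling, and they were compared between arrays for 1 gene at a time.

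The protein p53 is a transcription factor that is kept scarce by the ubiquitin ligase Mdm2 and accumulates after DNA damage or other stress. It then activates genes that arrest the cell cycle, repair damage or kill the cell, together with Mdm2 itself, which closes a feedback loop. Neural crest progenitors are known to be sensitive to p53 activity in mice with defects of ribosome production. Several of the target genes, among them Btg2 and Plk2, are also induced within minutes by growth factors without p53, as are Gadd45 genes by other stress signals.

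Upstream sequence was examined for the members because p53 binds DNA at paired copies of a 10-base element, here called a decamer. RefSeq promoters of assembly GRCm38.p6, from 250 bases before to 50 after a transcript start, were at hand for 8 of the 9 measured members, with 2 starts for Sesn1. Capitals mark the match in each window, and each window is written 5′ to 3′ on the strand of the gene. Ccng1 is shown because its promoter held the single paired p53 site among these 9 promoters, Mdm2 and Sesn1 because theirs held a single decamer. Btg2 and Plk2 are shown because theirs held TGACGTCA, the palindrome bound by CREB and related factors, and because these 2 genes differed in how they varied among the arrays.
Ccng1, chr11:40755432-40755511, minus strand: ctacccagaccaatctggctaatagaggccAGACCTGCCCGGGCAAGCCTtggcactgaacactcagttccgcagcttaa
Mdm2, chr10:117710905-117710974, minus strand: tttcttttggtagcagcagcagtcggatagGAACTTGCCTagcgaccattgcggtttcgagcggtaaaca
Sesn1, chr10:41887236-41887305, plus strand: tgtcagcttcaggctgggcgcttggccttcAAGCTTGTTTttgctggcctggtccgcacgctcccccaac
Btg2, chr1:134079284-134079351, minus strand: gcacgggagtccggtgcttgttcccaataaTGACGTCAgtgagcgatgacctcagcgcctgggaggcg
Plk2, chr13:110394952-110395019, plus strand: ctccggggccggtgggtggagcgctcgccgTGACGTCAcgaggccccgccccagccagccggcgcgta

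The p53 decamer consensus reads the same on both strands. A decamer without mismatch was found in 3 of the 9 promoters of measured members and in 8.36% of 32851 mouse promoters. A paired site, with up to 1 mismatch in each decamer and a spacer of 0 to 13 bases, was found in 1 of the 9 and in 2.71% of all. In Ccng1 it began 195 bases before the start, with the decamers adjoining. The decamer of Mdm2 began 186 bases before the start and that of Sesn1 173 bases before 1 of its 2 starts. The decamer of Ccng1 is part of its paired site. The palindrome TGACGTCA lay in 2 of the 9 promoters and in 1.79% of all, beginning 166 bases before the start in Btg2 and 62 in Plk2. A match describes these letters and is not evidence of binding. Sequence outside these promoters was not searched, so a promoter without a match does not show that its gene lacks a p53 site.

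Expression of Sox10, the mutated gene (chromosome 15), was 9.98, 10.94, 10.52 and 10.55 log2 units in Dom/Dom replicates 1 to 4, against 11.67, 11.46, 11.89 and 11.75 in wild-type replicates 1 to 4. The groups did not overlap (difference -1.20, standard error 0.18, limma adjusted p = 0.0168; 0.0312 with the replicate block). Since a frameshift allele can still be transcribed, Sox10 RNA is no check of the genotype labels. Of the neural crest markers, 10 were measured, and their summed log2 level was 110.67 to 112.88 in Dom/Dom and 115.20 to 118.17 in wild type. The differences of Sox10, Erbb3, Ngfr, Ednrb, Tfap2a and Snai2 were below 0, from -1.57 to -0.19. Of these, Sox10 and Erbb3 passed without and with the block, and Tfap2a passed with the block only. Ngfr, Ednrb and Snai2 passed in neither fit. The differences of Twist1, Sox9, Pax3 and Tfap2b were above 0, from 0.02 to 0.10, and did not pass. Neural tube markers were not analysed here. In these bulk cultures fewer cells of a type and less RNA per cell cannot be told apart.

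Between the genotypes, Plk2 and Gadd45b had the largest differences of the p53 target genes and Gadd45 genes, 0.30 log2 units higher in Dom/Dom each, and neither passed the test. Of the 9 measured members, 0 passed at a limma adjusted p below 0.05, where 0.481% of all genes tested passed, a share that amounts to less than 1 gene in 9. The same count of 0 was obtained with the replicate number as a block, where 1.50% of all genes passed. At an unadjusted p below 0.05, 1 member passed without the block and 2 with it, against 6.11% and 13.9% of all genes. The median difference of the members was 0.06 log2 units, from -0.10 for Perp to 0.30 for Plk2, with 6 of 9 above 0. The median over all genes was -0.001, with 49.6% above 0. The median size of the difference, whatever its sign, was 0.08 for the members and 0.06 over all genes. Groups overlapped for all 9 members, while they did not overlap for 3.78% of all genes.

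**Figure D1:**
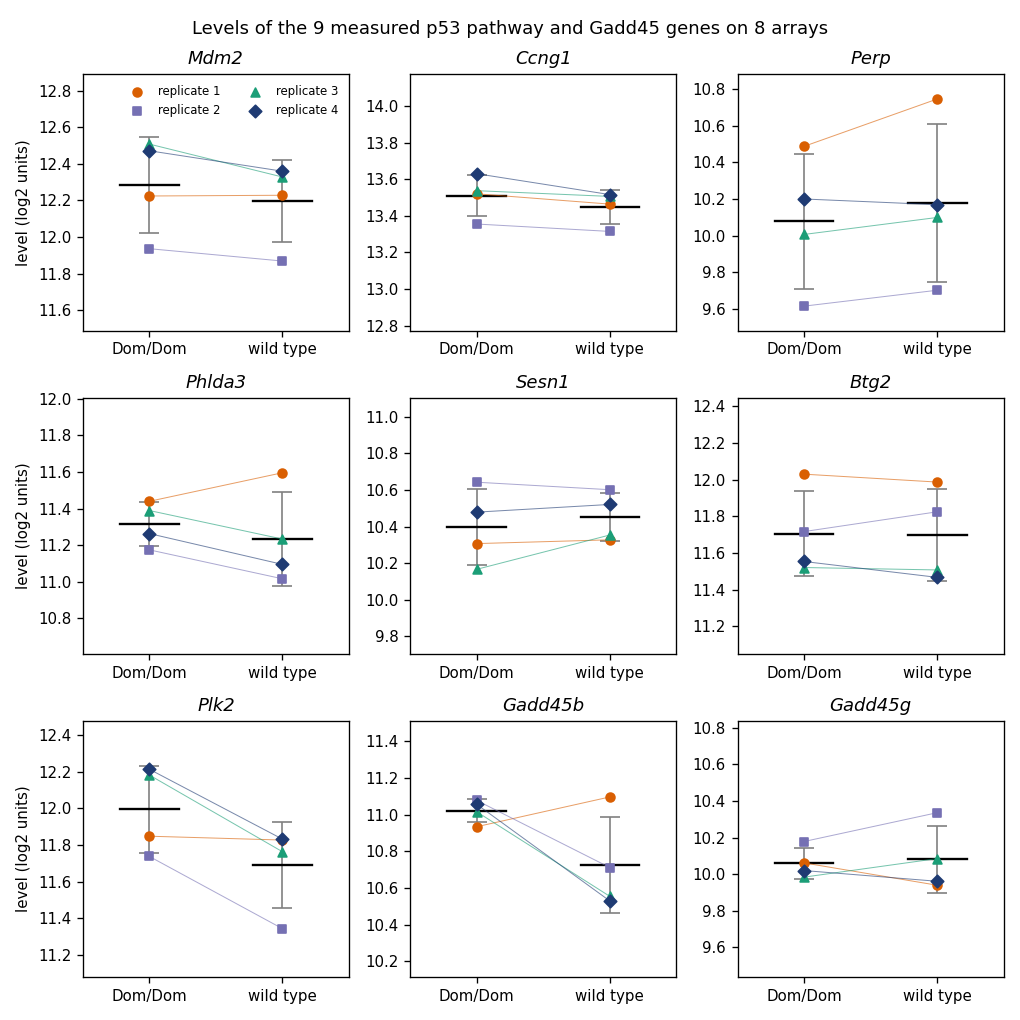
Level in log2 units of the 9 measured members on the 8 arrays, Dom/Dom on the left and wild type on the right of each panel. Points are arrays, marked by replicate number and joined within a number, the black bar is the mean and the whisker 1 SD (n = 4), and each axis spans the same number of log2 units. The widest gap between same-numbered arrays of the 2 genotypes is 0.11 for Btg2 and Ccng1, 0.26 for Perp, 0.42 for Plk2 and 0.53 for Gadd45b, whose SD is 0.06 in Dom/Dom and 0.26 in wild type.

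Mdm2, the ligase that marks p53 for degradation and is itself a p53 target (probe set 10372668, chromosome 10), did not pass. Its level was 12.22, 11.94, 12.51 and 12.47 log2 units in Dom/Dom replicates 1 to 4, against 12.23, 11.87, 12.33 and 12.36 in wild-type replicates 1 to 4. Replicate 2 was lowest in both genotypes and replicates 3 and 4 were highest. Within replicates 3 and 4, both Dom/Dom arrays lay above both wild-type arrays. Dom/Dom averaged 12.29 ± 0.26 and wild type 12.20 ± 0.23 (SD, n = 4 each). The difference was 0.09, standard error 0.15 (limma adjusted p = 1.00; 0.508 with the block). Its 95% interval in the blocked fit, -0.03 to 0.21 log2 units, corresponds to 0.977- to 1.16-fold. Without the block the interval corresponds to 0.849- to 1.33-fold.

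Ccng1, which encodes the p53-induced cyclin G1 (chromosome 11), did not pass either. Dom/Dom replicates 1 to 4 had 13.52, 13.36, 13.54 and 13.63 log2 units, against 13.46, 13.31, 13.51 and 13.52 in wild-type replicates 1 to 4. Replicate 2 was lowest in both genotypes, as for Mdm2. Each Dom/Dom array lay above its same-numbered wild-type array, by 0.03 to 0.11, as in 10.4% of all genes. The mean difference was 0.06, standard error 0.09 (limma adjusted p = 1.00; 0.619 with the block), and the blocked interval ran from -0.05 to 0.17.

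Perp, a membrane protein of desmosomes that is also a p53 apoptosis target (chromosome 10), varied most among the members. It stood at 10.49, 9.61, 10.01 and 10.20 log2 units in Dom/Dom replicates 1 to 4, against 10.75, 9.70, 10.10 and 10.17 in wild-type replicates 1 to 4. Replicate 1 was highest and replicate 2 lowest in both genotypes. The difference between genotypes was -0.10, standard error 0.22 (limma adjusted p = 1.00; 0.512 with the block). Perp is also a gene of epithelia. The 5 measured epithelial markers, which were Krt8, Krt18, Krt5, Krt14 and Grhl2, summed to 46.16 to 48.73 log2 units in Dom/Dom and 48.55 to 50.22 in wild type. In Dom/Dom, 4 of the 5 were highest in replicate 1 and 4 lowest in replicate 2, and in wild type 3 and 3, with Krt5 and Krt14 lowest in wild-type replicate 1. The differences of all 5 were below 0, and that of the keratin gene Krt8 passed with the block (-0.50, limma adjusted p = 0.232; 0.0164 with the block). Krt8 was also the 1 marker of the 5 that passed the test between replicate numbers, as did 24.6% of all genes. The part of these markers in the level of Perp was not tested.

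Phlda3, a p53-induced inhibitor of Akt (chromosome 1), read 11.44, 11.17, 11.39 and 11.26 log2 units in Dom/Dom replicates 1 to 4, against 11.60, 11.02, 11.23 and 11.09 in wild-type replicates 1 to 4. It was higher in Dom/Dom in 3 of 4 pairs, by 0.16 to 0.17, and lower by 0.16 in pair 1, where "pair" means the 2 arrays of one number. The mean difference was 0.08, standard error 0.13 (limma adjusted p = 1.00; 0.666 with the block). Sesn1, a stress-induced inhibitor of mTORC1 signalling (chromosome 10), read 10.31, 10.64, 10.17 and 10.48 in Dom/Dom replicates 1 to 4, against 10.33, 10.60, 10.35 and 10.52 in wild-type replicates 1 to 4. For Sesn1, as for Gadd45g, replicate 2 was the highest in both genotypes, the opposite of Mdm2, Ccng1, Perp, Phlda3 and Plk2. The difference of Sesn1 was -0.05, standard error 0.11 (limma adjusted p = 1.00; 0.727 with the block).

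Btg2, an antiproliferative regulator of mRNA decay and transcription (chromosome 1), had nearly equal means in the genotypes. Its level was 12.03, 11.72, 11.52 and 11.55 log2 units in Dom/Dom replicates 1 to 4, against 11.99, 11.82, 11.51 and 11.47 in wild-type replicates 1 to 4. In both genotypes the arrays of replicate 1 were highest, and those of replicates 3 and 4 lowest. The difference was 0.01, standard error 0.15 (limma adjusted p = 1.00; 0.960 with the block), and the blocked interval of -0.12 to 0.13 corresponds to 0.923- to 1.10-fold. Of 7 measured proliferation genes, such as Cdk1, 6 had their lowest Dom/Dom level in replicate 1, the number in which Btg2 was highest. In wild type 3 had their lowest level in replicate 1 and 3 in replicate 3, where Btg2 was at 11.51. Whether this bears on Btg2 was not tested.

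Plk2, a polo-like kinase induced by p53 and by growth factors (probe set 10407126, chromosome 13), had the largest mean difference of the members. Its level was 11.85, 11.74, 12.18 and 12.21 log2 units in Dom/Dom replicates 1 to 4, against 11.83, 11.34, 11.76 and 11.83 in wild-type replicates 1 to 4. Plk2 was higher in Dom/Dom in 4 of 4 pairs, by 0.39, 0.42 and 0.38 in pairs 2 to 4 and by 0.02 in pair 1. The mean difference of 0.30 (standard error 0.14; 1.23-fold, 95% interval 0.992 to 1.54) did not pass (limma adjusted p = 0.855; 0.139 with the block). With the block its interval was 0.12 to 0.49, with an unadjusted p = 0.0062. The pair differences of Btg2 were 0.04, -0.11, 0.01 and 0.09. Whether the TGACGTCA palindrome bears on the level of either gene was not tested.

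Gadd45b, a small stress protein that activates the kinase MAP3K4 and through it p38 and JNK (probe set 10364950, chromosome 10), had a similar mean difference with another pattern. Its Dom/Dom level was nearly constant, at 10.93, 11.08, 11.02 and 11.06 log2 units in replicates 1 to 4. In wild type it was 11.10, 10.71, 10.55 and 10.53 in replicates 1 to 4. Wild-type replicate 1 lay above every Dom/Dom array, and the other 3 wild-type arrays lay below every one. The pair differences were -0.16, 0.37, 0.46 and 0.53, with a mean of 0.30 and a standard error of 0.12 (1.23-fold, 95% interval 1.02 to 1.48). The unadjusted p was 0.0327, and the difference did not pass (limma adjusted p = 0.659; 0.318 with the block).

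Gadd45g, its paralog with the same kinase partner (chromosome 13), did not show this pattern. It read 10.06, 10.18, 9.98 and 10.02 log2 units in Dom/Dom replicates 1 to 4, against 9.94, 10.34, 10.08 and 9.96 in wild-type replicates 1 to 4. Dom/Dom was higher in pairs 1 and 4 and lower in pairs 2 and 3. The difference was -0.02, standard error 0.10 (limma adjusted p = 1.00; 0.914 with the block).

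**Figure D2:**
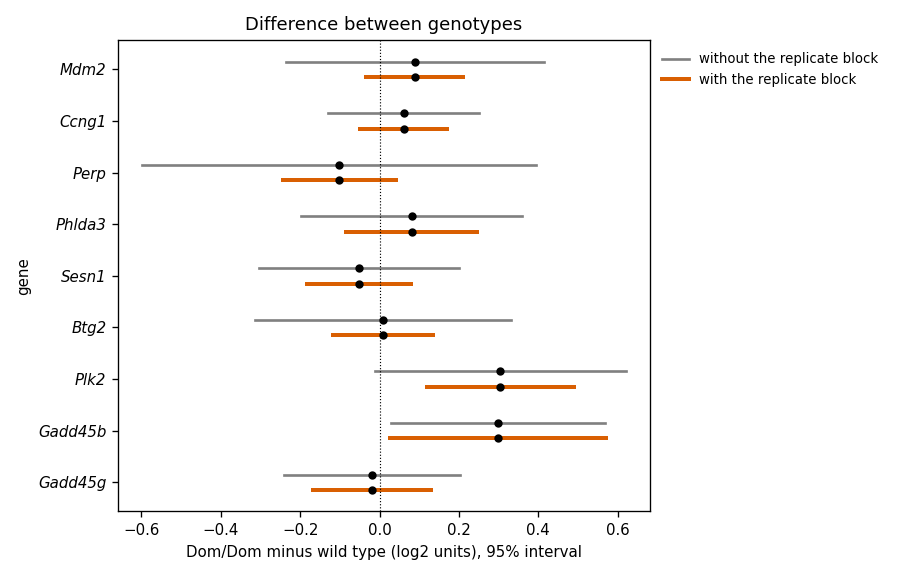
Difference between genotypes (Dom/Dom minus wild type, log2 units) for the 9 measured members, with 95% intervals from limma without the replicate block (grey, upper) and with it (orange, lower). Plk2 and Gadd45b sit at 0.30, and the other 7 lie between -0.10 and 0.09 with intervals that include 0.

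Leaving out replicate 1 changed the call of both Plk2 and Gadd45b. In the blocked fit over the arrays of replicates 2 to 4, a choice made after seeing the data, Plk2 differed by 0.40 (limma adjusted p = 0.0102) and Gadd45b by 0.45 (adjusted p = 0.0102). In that fit 6.93% of all genes passed, and these 2 were the members among them. Without replicate 2, 3 or 4 neither gene passed in the blocked fit, with adjusted p from 0.257 to 0.599 for Plk2 and from 0.449 to 0.826 for Gadd45b. Nor did either pass without any single array in the fit without the block, where Gadd45b came nearest without wild-type replicate 1 (difference 0.42, adjusted p = 0.0731).

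Replicate 1 also stood apart for immediate early genes, a class that growth factors induce within minutes. Of 9 measured immediate early genes that are not members, 9 were higher in Dom/Dom in each of pairs 2, 3 and 4, with median differences of 0.15, 0.30 and 0.26, and 1 of 9 in pair 1, with a median of -0.19. Of all 6855 genes tested, 3208, 3873, 3168 and 3437 were above 0 in pairs 1 to 4, with medians between -0.01 and 0.02. Fos, a subunit of the AP-1 transcription factor, had pair differences of -0.30, 0.15, 0.50 and 0.48, and Klf6, a zinc-finger transcription factor, had -0.19, 0.31, 0.32 and 0.31. Wild-type replicate 1 held 10.20 log2 units of Fos, against 9.28 to 9.59 in the other wild-type arrays. For Gadd45b that array was also the highest of wild type, at 11.10. For Plk2 it stood at 11.83, level with wild-type replicate 4. Of the members, Gadd45b, Phlda3 and Mdm2 were likewise below 0 in pair 1, Mdm2 by only -0.004, and above 0 in pairs 2 to 4. Plk2 and Ccng1 were above 0 in all 4 pairs, and Btg2, Perp, Sesn1 and Gadd45g had other patterns. Over all 8 arrays, 0 of the 9 immediate early genes passed with or without the block, beside 1.50% and 0.481% of all genes. For Fos the limma adjusted p was 1.00 without the block and 0.552 with it.

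**Figure D3:**
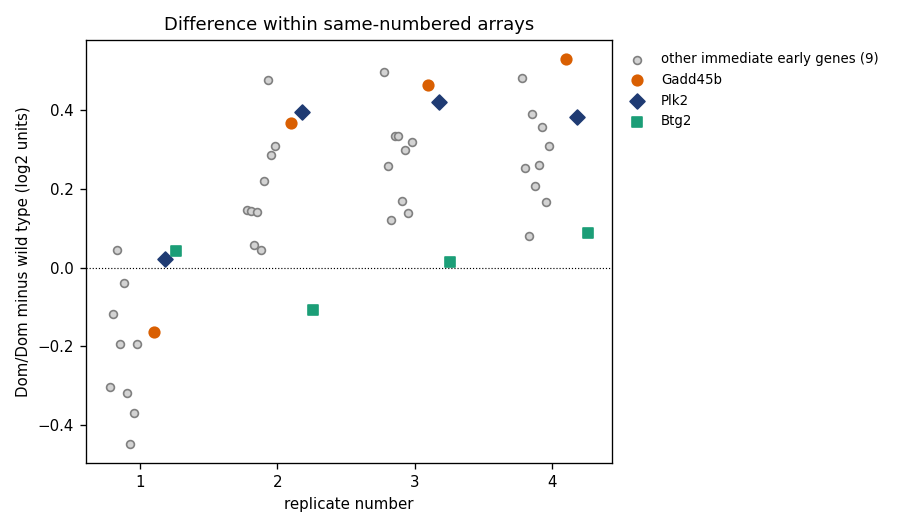
Difference between the Dom/Dom and the wild-type array of the same replicate number (log2 units) for Gadd45b, Plk2 and Btg2. Grey points are 9 immediate early genes that are not members. In replicates 2 to 4 all grey points lie above 0 with Gadd45b and Plk2, while in replicate 1 Gadd45b is at -0.16, Plk2 at 0.02 and 8 of the 9 grey points are below 0.

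The members' levels also varied with the replicate number. The mean of the 2 arrays of a number spanned 0.96 log2 units for Perp (1.94-fold), 0.52 for Mdm2 (1.43-fold), 0.50 for Btg2 (1.41-fold), 0.48 for Plk2 and 0.42 for Phlda3. It spanned 0.36 for Sesn1, 0.27 for Gadd45g, 0.24 for Ccng1 and 0.23 for Gadd45b. The median span was 0.42 for the members and 0.28 over all genes.

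Of the 9 members, 4 differed between replicate numbers by limma's F-test with genotype in the model, where 24.6% of all genes passed. These were Perp (adjusted p = 0.0100), Mdm2 (0.0144), Btg2 (0.0157) and Sesn1 (0.0419). Plk2 (adjusted p = 0.0525), Phlda3 (0.0598), Ccng1 (0.0980), Gadd45g (0.128) and Gadd45b (0.556) did not pass. In the smaller fit without the 2 arrays of replicate 4, 0 members and 1 gene in all passed, with adjusted p of 0.0541 for Perp, 0.0553 for Mdm2, 0.0568 for Btg2 and 0.0865 for Sesn1. The spans of these 4 genes over replicates 1 to 3 were still 0.96, 0.52, 0.49 and 0.36. Without replicate 2, Mdm2 (adjusted p = 0.166) and Sesn1 (0.125) lost their call, without replicate 1 Btg2 did (0.0636), and without replicate 3 Sesn1 did (0.0896). Adjusted over all probe sets of the table, Perp passed (0.0445) and the other 3 did not. Sesn1 also lost its call with arrays centred on their medians (0.0648) and with quantile normalization (0.102). Over 11 alternative settings, Perp passed in 10, Mdm2 and Btg2 in 8 each, Plk2 in 6, Sesn1 in 5, Phlda3 in 3 and Ccng1 in 1.

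**Figure D4:**
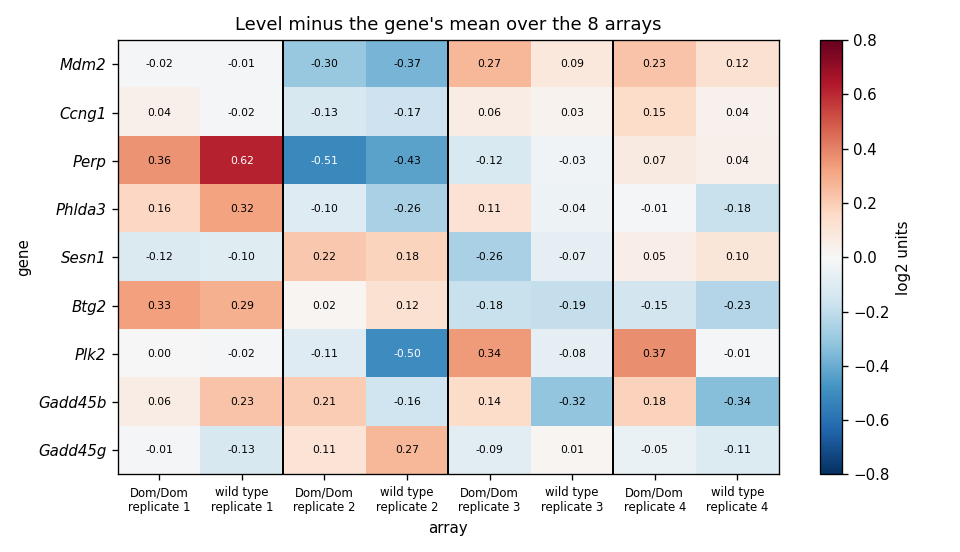
Level of each measured member on each array minus the gene's mean over the 8 arrays (log2 units, red above and blue below), with the Dom/Dom array left of the wild-type array within each replicate number. Both arrays of replicate 2 are low for Mdm2, Ccng1, Perp, Phlda3 and Plk2 and high for Sesn1 and Gadd45g. Btg2 is highest in both arrays of replicate 1.

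Other genes of the pathway were taken from lists of regulators, targets, apoptosis genes and partners. Measured were 9 of 25 listed p53 regulators, 15 of 37 other targets, 10 of 33 BCL2 family and caspase genes and 7 of 14 Gadd45 partners and stress kinases. The rest, among them the targets Cdkn1a, Bax and Bbc3, were not analysed here. The 9 measured p53 regulators included Mdm4, Cop1, Ppm1d, Ep300, Sirt1 and Trp63. Without the block 0 of them passed between genotypes, where 0.481% of all genes did. With the block 1 fell, as did 1.05% of all genes. That gene was Ppp1r13b, which encodes ASPP1, a protein that directs p53 to apoptosis genes. Its level was 8.78 to 9.21 log2 units in Dom/Dom, against 9.18 to 9.59 in wild type, so that the groups overlapped slightly. It was lower in 4 of 4 pairs, as were 10.7% of all genes (difference -0.40, limma adjusted p = 0.353; 0.0340 with the block). The median difference of these regulators was -0.03.

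Of 15 other measured p53 targets, 0 passed without the block, where 0.481% of all genes did. With the block 1 fell, as did 1.05% of all genes. This was Ddit4, a stress-induced inhibitor of mTORC1. Ddit4 had 10.08, 9.88, 10.31 and 10.32 log2 units in Dom/Dom replicates 1 to 4 and 10.34, 10.25, 10.76 and 10.63 in wild-type replicates 1 to 4. Its groups overlapped, and it was lower in 4 of 4 pairs, as were 10.7% of all genes (difference -0.34, limma adjusted p = 0.642; 0.0353 with the block). It therefore ran opposite to Plk2, another target. The median difference of the 15 was 0.02, with 8 above 0. The groups did not overlap for 1 of the 15, as for 3.78% of all genes. This was Gtse1, a cell cycle regulator that lowers p53 in G2, chosen here after its values were seen (difference 0.33, adjusted p = 0.291; 0.0555 with the block). Its lowest Dom/Dom level, 11.146 in replicate 4, lay barely above its highest wild-type level, 11.142 in replicate 1.

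Of 10 measured genes of the BCL2 family and the caspases and their regulators, 0 passed between genotypes with or without the block. Of all genes, 1.50% and 0.481% did. The largest differences were those of the mitophagy receptor Bnip3 (-0.19, limma adjusted p = 1.00) and the survivin gene Birc5 (0.12, adjusted p = 1.00), and the list's median was -0.02. Between replicate numbers 4 of the 10 passed, where 24.6% of all genes did. One of them was Bcl2, the survival factor, with 12.05, 12.12, 11.52 and 11.71 log2 units in Dom/Dom replicates 1 to 4 and 11.98, 12.17, 11.62 and 11.82 in wild-type replicates 1 to 4 (adjusted p = 0.0134). Bcl2 was thus higher in replicates 1 and 2 than in replicates 3 and 4 in both genotypes, and it was named after its values were seen.

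Of 7 measured partners of Gadd45 proteins and stress kinases, 0 passed between genotypes with or without the block, beside 1.50% and 0.481% of all genes. Map3k5, which encodes the stress kinase ASK1, differed by -0.29 (limma adjusted p = 0.923; 0.350 with the block), and the mitotic kinase gene Cdk1 by 0.09 (adjusted p = 1.00). Of these 7, 4 passed between replicate numbers, again beside 24.6% of all genes. Among 8 measured paralogs of the members, 0 passed in any of these 3 tests, beside the same shares of all genes. The antiproliferative gene Btg1, paralog of Btg2, differed by -0.20 (adjusted p = 1.00) and the p53 relative Trp63 by -0.11 (adjusted p = 1.00). Of 7 proliferation genes 0 passed between genotypes with or without the block, beside 1.50% and 0.481% of all genes. Their median difference was 0.10, and the largest were Cdk2 at -0.13 and the replication helicase gene Mcm6 at 0.13 (adjusted p = 1.00 each). Between replicate numbers 3 of these 7 passed, beside 24.6% of all genes. Of the 9 immediate early genes, the largest difference was that of Fos (0.20), followed by the transcription factor gene Klf6 (0.19, adjusted p = 1.00; 0.450 with the block). Some genes, such as Mdm4, Trp63, Cdk1 and Birc5, stand in more than 1 of these lists.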

How the data were processed

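RNA of cultured cells was profiled on 8 Affymetrix GeneChip mouse Gene ST arrays from 250 ng of total RNA. The deposited values are log2 levels per probe set, made with RMA and Partek per the submitters' processing notes, whose versions and settings are not given in the sources at hand. RMA compresses differences of dim probe sets, and no detection calls came with the values. The number of arrays limits the precision.

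Of 16381 probe sets, 7416 had 1 gene symbol, 509 several and 8456 none in the platform annotation. Genes with several probe sets (308) were represented by the brightest, leaving 6855 genes, of which 6708 lie on chromosomes 1 and 10 to 16. Symbols were updated by gene identifier for 6829.

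The genotype comparison used limma 3.58.1 under R 4.3.3 (two-sided, genotype as the only term, Benjamini-Hochberg over all genes, threshold 0.05), and replicate numbers by its F-test. Both were tested on simulated data with noise drawn independently for each array. The blocked genotype fit was not tested in this way. Same-numbered arrays of the genotypes deviated together (correlations 0.47, 0.58, 0.61 and 0.67 over genes, limit 0.1), so numbers were taken to pair the arrays. This comes from the data and not from a label. Replicates 3 and 4 also correlated across numbers (0.38 and 0.21), as did 1 and 2 (0.11 and 0.14). The members and lists were chosen with earlier results of these data known. Named genes are the members, Sox10, and per list those past the threshold in either genotype fit or else the 2 largest differences. Marker genes are given as whole lists or where their call changed, and Gtse1 and Bcl2 were added after their values were seen.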

Additional observations from a re-analysis of the deposited data

Results flagged for a closer look

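In wild-type replicate 2, Plk2 stood at 11.34 log2 units, far below the other 3 wild-type arrays, which held 11.76 to 11.83. The 4 arrays of each genotype were searched in this way for the 9 measured members. This was the single such value in 18 sets, where chance gives 0.9, about 1 in 20. Without this array the difference of Plk2 was 0.19 (limma adjusted p = 0.998), against 0.30 with it, and the Dom/Dom array of the same number was the lowest of its genotype too, at 11.74.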

How the results depend on the processing

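Across 17 planned settings, none of the 9 members passed between genotypes, the lowest adjusted p being 0.0505 for Gadd45b with array weights (difference 0.41). In 6 of these settings a member's difference cannot move. In the other 11, 88 of 99 differences kept their direction, and the 11 that turned belonged to Mdm2, Btg2, Perp, Sesn1 and Gadd45g. Gadd45g turned to 0.016 with arrays centred on their medians and to 0.0064 with quantile normalization. Without one array, the difference ran from -0.067 to 0.066 for Gadd45g, -0.10 to 0.11 for Btg2, -0.26 to 0.087 for Perp, -0.13 to 0.025 for Sesn1, -0.020 to 0.20 for Mdm2, 0.0087 to 0.20 for Phlda3, 0.015 to 0.11 for Ccng1, 0.19 to 0.39 for Plk2 and 0.23 to 0.42 for Gadd45b. In blocked fits without 1 replicate number, added after seeing the data, Btg2 turned to -0.0027 without replicate 1 and to -0.017 without replicate 4, and Gadd45g to 0.026 and 0.0077 without replicates 2 and 3. The count of members there was 0 to 2.

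The count of all genes between genotypes, 33, was 103 with the replicate block and 267 with the replicate block as a random effect, 190 with array weights and 4 over all probe sets, and it ran from 10 to 51 without one array. In blocked fits without replicate 1, 2, 3 or 4 it was 475, 112, 15 and 13. The block changed the call of no member, and of the pathway list genes those of Ppp1r13b and Ddit4. Of the cell type markers, it added Krt8 (adjusted p = 0.0164), Tfap2a (0.0418) and Pou4f1 (0.0074), lower in Dom/Dom, and Prrx1 (0.0339), higher. Between replicate numbers, the count of 1687 genes was 852 over all probe sets and ran from 1 to 1396 without 1 number. The 4 members were 1 over all probe sets, 7 with a trended and robust prior, and 0 to 4 without 1 number. The causes were not tested. Signal over background was not assessed.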
